A study of Mus musculus with 6 samples.

Results

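Molecular chaperones help other proteins to fold, and their transcripts were followed here in the left atrium of mice with a leaking mitral valve (mitral regurgitation, MR). The genes were taken by symbol: heat shock proteins (Hspa, Hspb, Hspd, Hspe, Hsph and Hsp90 genes), DnaJ proteins of classes A, B and C, the small heat shock protein αB-crystallin (Cryab) and the BAG co-chaperones. This gave 94 of the 55471 genes in the deposited table. By the place where each protein is known to work, 44 were cytosolic or nuclear, 8 mitochondrial, 13 of the endoplasmic reticulum (ER) and 13 of other or unassigned location, and 16 were pseudogenes or related sequences.

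All mice were adult C57BL/6J males operated on at 10 weeks of age, and left atria were collected 2 weeks later. In the MR mice the anterior mitral leaflet had been punctured with echocardiographic guidance, and in the Sham mice the apex was punctured and the leaflet was spared. Each group had 3 mice with 1 library each, made from poly(A) RNA of left atrial tissue and labelled biological replicates. Transcripts of all its cell types were therefore pooled, and fewer cells of a type and less RNA per cell cannot be told apart in such data.

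HSP70 proteins bind and release unfolded stretches of their clients in a cycle driven by ATP. DnaJ (J) proteins deliver clients and start ATP hydrolysis, while BAG and HSP110 proteins trigger nucleotide release and so end the cycle. HSP90 acts later on kinases, steroid receptors and myosin, and small heat shock proteins hold unfolding proteins without ATP. Mitochondria and the ER keep their own HSP70, J protein and HSP60 or HSP90 forms, and heart muscle is known for a large content of small heat shock proteins, which bind sarcomere proteins and desmin. In the cytosol and mitochondria many of these genes are driven by heat shock factors, and in the ER by the unfolded protein response.

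Gene counts summed to 14313801, 14124407 and 19222343 in MR libraries 1 to 3 and to 20039490, 15008998 and 14718462 in Sham libraries 1 to 3. Levels of one gene across libraries are in CPM, a count divided by its scaled library total and multiplied by 1000000, and are given in the order of libraries 1, 2 and 3 of each group. A count of 3, used as the floor of detection, equalled at most 0.212 CPM. Of the 94 chaperone genes 16 had fewer than 10 counts in all, of which 10 had no count in any library, and 75 passed the filter on low counts and were tested. The defining atrial genes Myl7, Myl4 and Sln were among the markers measured, at 5553 ± 828 CPM in MR and 8178 ± 899 CPM in Sham (SD, n = 3 each) for Myl7. The ventricular marker Irx4 had no count, and the ventricular light chain Myl3 was lower in MR, at 67.2, 68.2 and 57.7 TPM in MR libraries and 153, 119.8 and 147 TPM in Sham libraries (TPM, counts scaled by gene length and library by the authors; log2 fold change -1.46 and adjusted p = 9.75e-05 in edgeR). The other ventricular light chain, Myl2, was at 2.46, 3.13 and 1.00 TPM in MR libraries and 0.553, 1.03 and 0.710 TPM in Sham libraries and was not called (log2 fold change 1.15, adjusted p = 0.0859 in edgeR). Fat cell markers stood apart between libraries, at 760.4, 1405 and 7.07 summed TPM in MR libraries 1 to 3 and 3.26, 0.779 and 17.2 summed TPM in Sham libraries 1 to 3. MR libraries 1 and 2 were therefore high in fat cell transcripts and MR library 3 lay within the Sham range, so counts are also given below with MR library 3 alone.

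The chaperone genes together held 0.785%, 0.694% and 0.708% of all TPM in MR libraries and 0.712%, 0.668% and 0.785% in Sham libraries, ranges that overlapped. By TPM, which allows levels of different genes to be compared, Cryab was the most abundant at 1313 TPM over all 6 libraries. It was followed by Hsp90ab1, the constitutive cytosolic HSP90, at 886 TPM, by Hspb7, a small heat shock protein of heart muscle, at 742 TPM, and by Hspa8, the constitutive cytosolic HSP70, at 674 TPM. Further down stood Hspa5 of the ER at 341 TPM and Hspa9 of the mitochondria at 224 TPM. The heat-inducible Hspa1a and Hspa1b were low, at 4.31 TPM and 3.95 TPM.

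**Figure D1:**
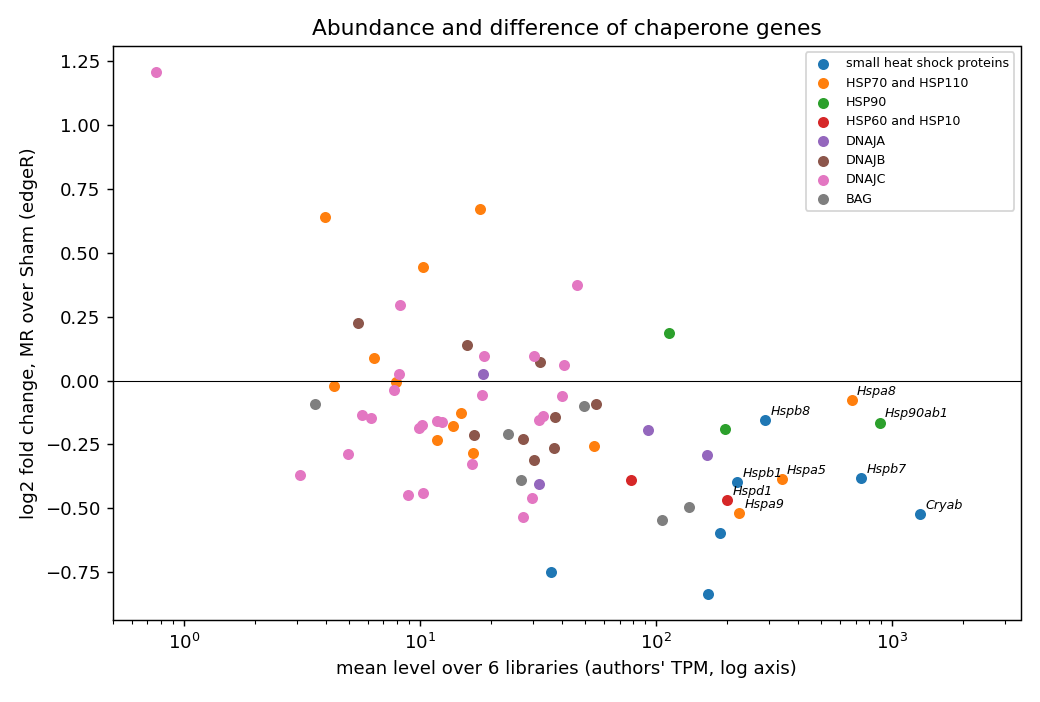
Mean level over the 6 libraries (authors' TPM, log axis) against the log2 fold change of MR over Sham (edgeR) for the chaperone genes tested, coloured by family, without pseudogenes and related sequences. Most genes lie below 0, the small heat shock proteins all do, and the most abundant gene, Cryab, is at -0.52; on unscaled library totals the median of all genes is 0.21 higher.

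Against this background, chaperone transcripts were lower in MR atria more often than higher. With adjusted p below 0.05 in edgeR's quasi-likelihood test over 15218 genes, 3 of the 75 chaperone genes (4%) were higher in MR, beside 11.8% of all genes tested. Another 18 of the 75 (24%) were lower in MR, beside 10.6% of all genes tested. The median log2 fold change of MR over Sham was -0.18 over the 75 chaperone genes and 0.0016 over all genes tested, and 59 chaperone genes had a negative value and 16 a positive one. CPM values of the 3 MR libraries lay wholly below those of the 3 Sham libraries for 30 chaperone genes (40%, beside 21.2% of all genes) and wholly above them for 6 (8%, beside 20.6% of all genes).

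These counts are relative to the bulk of the transcriptome, because counts were scaled with TMM factors, which place the typical gene near no change. On unscaled library totals the median of all genes shifted by 0.21 (log2), and the split of chaperone genes turned to 11 higher and 4 lower in MR (26.4% and 3.77% of all genes). The 4 that were lower on both scales were Bag1, Bag3, Hspb3 and Hspb6, and Hspa12b, Dnajc6 and Dnajc3 were higher on both. A change of scale moves the log2 fold changes of all genes by nearly the same amount, so the rank of the compartments could hardly turn with it. Measured from the median gene, mitochondrial members had a median of -0.43, cytosolic and nuclear members -0.19 and ER members -0.10 on library totals. On the authors' TPM these were -0.43, -0.19 and -0.09. Their likeness follows from the arithmetic and is no support for the rank. Every fold change and call given below is on the TMM scale unless another is named, and the remaining lower genes did not pass on library totals. Sums of TPM are given for marker genes, and on the authors' TPM the median gene was 0.34 (log2) higher in MR, so such sums carry that shift.

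**Figure D2:**
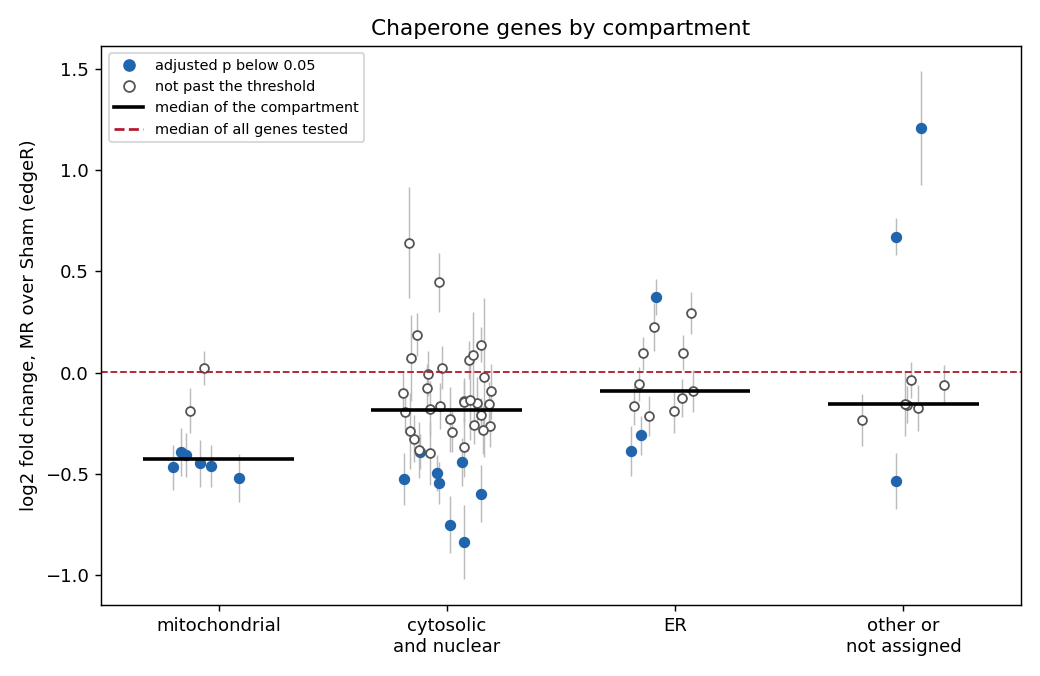
Log2 fold change of MR over Sham (edgeR, TMM scale) for tested chaperone genes by compartment, without pseudogenes and related sequences; bars through points are 1 SE, filled points passed adjusted p below 0.05, black lines are compartment medians and the dashed line is the median of all genes tested. The mitochondrial median is -0.43, the cytosolic and nuclear median -0.19 and the ER median -0.09; on library totals these are -0.22, 0.02 and 0.11.

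Among cytosolic and nuclear members 0 of 40 were higher and 8 (20%) were lower in MR, beside 11.8% and 10.6% of all genes tested. The 8 were 4 small heat shock proteins, 3 BAG genes and Dnajc21. Hspa12b and Dnajc6, both higher in MR, were placed with the members of other or unassigned location, so the count of 0 higher depends on that assignment. The median over the 40 was -0.19, and per library, measured against the Sham mean, it was -0.15, -0.28 and -0.18 in MR libraries and -0.04, -0.03 and 0.08 in Sham libraries. On library totals the median was 0.02, and 4 were higher and 4 lower, beside 26.4% and 3.77% of all genes. At an unadjusted p below 0.05 in edgeR 2 were higher and 17 lower, beside 19% and 17.9% of all genes tested. At adjusted p below 0.05 DESeq2 called 0 higher and 10 lower (11% and 10.1% of all genes), and limma-voom called 0 higher and 8 lower (11% and 10.6% of all genes).

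Of 7 small heat shock proteins tested 4 were lower in MR (57.1%, beside 10.6% of all genes tested). Their median was -0.52 (-0.32 on library totals, where Hspb3 and Hspb6 passed). Hspb6 encodes HSP20, a small heat shock protein of muscle that is phosphorylated by protein kinase A, and it had 150.3, 86.0 and 133 CPM in MR, against 199.9, 209 and 250.4 CPM in Sham. All MR libraries lay below all Sham libraries, MR library 2 was the lowest, and Hspb6 fell by 44.0% (log2 fold change -0.84, SE 0.18, adjusted p = 0.0125). Other annotated genes overlap 8.8% of its exon bases. Hspb3, which pairs with Hspb2 in muscle cells, had 9.81, 8.96 and 9.28 CPM in MR, against 18.5, 14.4 and 14.1 CPM in Sham. It fell by 40.5% (log2 fold change -0.75, SE 0.14, adjusted p = 0.00693), with MR libraries close to each other and Sham library 1 above the other 2.

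Cryab, the αB-crystallin that binds desmin and titin, had 736, 611 and 768 CPM in MR, against 1005, 914 and 1121 CPM in Sham. The groups did not overlap, and Cryab fell by 30.4% (log2 fold change -0.52, SE 0.13, adjusted p = 0.0186). Its neighbour Hspb2 had 63.2, 49.0 and 52.1 CPM in MR, against 95.1, 67.2 and 85.9 CPM in Sham, with the lowest Sham library just above the highest MR library (log2 fold change -0.60, SE 0.14, adjusted p = 0.0162). Cryab and Hspb2 lie head to head on chromosome 9, and their exons overlap on opposite strands over 17.0% of the exon bases of Cryab and 30.2% of those of Hspb2 in the supplied GENCODE annotation. The sources used here do not give the strand setting of the counting. Reads in that stretch therefore cannot be assigned with certainty, and the 2 values are not fully separate. The ratio of Hspb2 to Cryab TPM was 0.138 ± 0.016 in MR and 0.145 ± 0.020 in Sham (SD, n = 3 each), a difference smaller than either SD. Leaving out Sham library 1 or Sham library 3 left both Cryab and Hspb2 short of the threshold (largest adjusted p 0.0665 for Cryab and 0.0667 for Hspb2 in edgeR).

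The other 3 small heat shock proteins did not pass in the edgeR fit described above. Hspb7, which binds filamin C in the heart, had 927, 708 and 716 CPM in MR, against 1006, 925 and 1132 CPM in Sham (log2 fold change -0.38, SE 0.14, adjusted p = 0.0730), and MR library 1 lay inside the Sham range. Hspb1, known as HSP27 in human cells and an actin-binding member, had 101, 79.4 and 77.4 CPM in MR, against 123, 87.7 and 129 CPM in Sham (log2 fold change -0.40, SE 0.16, adjusted p = 0.0915). Hspb8, the partner of BAG3, had 217, 267 and 216 CPM in MR, against 258, 262 and 259 CPM in Sham (log2 fold change -0.15, SE 0.11, adjusted p = 0.325), with MR library 2 above every Sham library. Under other settings Hspb7 passed as lower in the DESeq2 test (adjusted p = 0.0233). In edgeR it passed without the filter on low counts (0.0214) and without MR library 1 (0.0187). Hspb1 passed as lower in edgeR without the filter (0.00454), without MR library 1 (0.0360) and without Sham library 2 (0.0363). The authors' deposited table has both Hspb7 and Hspb1 lower (adjusted p = 0.000315 and 0.0319).

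BAG genes encode co-chaperones with a BAG domain that binds the ATPase domain of HSP70. Of the 6, 3 were lower in MR (50%, beside 10.6% of all genes tested). All 6 values were negative on the TMM scale (median -0.30 there and -0.09 on library totals). Bag3, which links HSP70 and Hspb8 to autophagy of damaged sarcomere proteins, had 107, 93.2 and 92.2 CPM in MR, against 131, 139 and 156 CPM in Sham. All 3 MR values were below all 3 Sham values, a fall by 31.5% (log2 fold change -0.55, SE 0.10, adjusted p = 0.00751). Bag1, which couples HSP70 to the proteasome, had 68.9, 69.5 and 66.0 CPM in MR, against 103, 94.0 and 91.0 CPM in Sham (log2 fold change -0.50, SE 0.09, adjusted p = 0.00600). The MR libraries of Bag1 were close to each other and the Sham libraries were all higher. Bag2, an inhibitor of the ubiquitin ligase CHIP, had 33.1, 29.6 and 31.1 CPM in MR, against 39.7, 39.3 and 43.9 CPM in Sham (log2 fold change -0.39, SE 0.09, adjusted p = 0.0138), and it missed the threshold without MR library 2 (adjusted p = 0.0549 in edgeR). Bag6, Bag5 and Bag4 did not pass, with log2 fold changes of -0.10, -0.21 and -0.09. Bag3 to Hspb8, the 2 partners of chaperone-assisted autophagy, had a TPM ratio of 0.374, 0.265 and 0.325 in MR libraries against 0.387, 0.403 and 0.458 in Sham libraries, with no overlap.

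No HSP70, HSP110 or HSP90 gene assigned here to the cytosol and nucleus passed in the edgeR fit described above, which had no block and no robust dispersion. Hspa12b, an atypical HSP70 that passed as higher, was placed with the members of other or unassigned location and is given below. Hspa8 had 1220, 1138 and 1324 CPM in MR, against 1171, 1346 and 1367 CPM in Sham (log2 fold change -0.08, SE 0.12, adjusted p = 0.680), and the groups overlapped. Hsp90ab1 had 1161, 1027 and 1092 CPM in MR, against 1127, 1255 and 1294 CPM in Sham (log2 fold change -0.16, SE 0.11, adjusted p = 0.323), and 2 of its MR libraries lay below all Sham libraries. Hsp90aa1, the inducible HSP90, had 178, 214 and 223 CPM in MR, against 176, 182 and 183 CPM in Sham (log2 fold change 0.19, SE 0.11, adjusted p = 0.228). MR libraries 2 and 3 of Hsp90aa1 were above all Sham libraries and MR library 1 was within their range. On library totals Hsp90aa1 passed as higher (log2 fold change 0.39, adjusted p = 0.0208 in edgeR). The authors' deposited table has Hsp90ab1 (adjusted p = 0.00174), Hspa4 (0.00180) and Hspa4l (0.00623) lower in MR. It does not call Hsp90aa1 (0.0705), Hspa2 (0.114) or Hspa1b (0.174). Hspa4 also passed as lower in edgeR without MR library 1 (0.0458).

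The stress-inducible HSP70 genes overlapped between groups. Hspa1a had 6.08, 4.61 and 5.69 CPM in MR, against 4.90, 2.19 and 9.62 CPM in Sham (log2 fold change -0.02, SE 0.39, adjusted p = 0.972), so that Sham libraries 2 and 3 enclosed every MR value. Hspa1b had 5.36, 4.80 and 6.88 CPM in MR, against 2.93, 2.63 and 5.50 CPM in Sham (log2 fold change 0.64, SE 0.28, adjusted p = 0.119). In edgeR it passed as higher on library totals (adjusted p = 0.0419), without the filter on low counts (adjusted p = 0.0206) and with the replicate number as a block (adjusted p = 0.0439). It also passed without Sham library 3, where the log2 fold change was 1.03 (adjusted p = 0.0285 in edgeR). Hspa1a and Hspa1b are near-identical copies on chromosome 17, so the split of reads between them is uncertain. Hsph1, the HSP110 exchange factor that heat induces, had 38.1, 38.2 and 46.6 CPM in MR, against 39.5, 56.3 and 43.7 CPM in Sham (log2 fold change -0.18, SE 0.14, adjusted p = 0.381). Hspa2, an HSP70 best known from the testis, had 14.4, 14.1 and 11.3 CPM in MR, against 8.52, 10.1 and 10.7 CPM in Sham. Its 3 MR values were above all Sham values, and it lay just outside the threshold (log2 fold change 0.45, SE 0.15, adjusted p = 0.0526). In edgeR Hspa2 passed as higher on library totals (adjusted p = 0.0121), without the filter (0.0312), with a filter at 1 CPM (0.0478), with a robust dispersion (0.0444) and without MR library 3 (0.0355).

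Of the cytosolic J proteins Dnajc21, which takes part in maturation of the large ribosomal subunit, had 19.4, 16.6 and 19.6 CPM in MR, against 27.2, 26.3 and 21.8 CPM in Sham. Its groups did not overlap and it was lower in MR (log2 fold change -0.44, SE 0.12, adjusted p = 0.0261). Dnajb1, the heat-inducible HSP40, had 31.3, 34.6 and 39.8 CPM in MR, against 33.4, 38.3 and 52.7 CPM in Sham (log2 fold change -0.23, SE 0.16, adjusted p = 0.325), and its highest value was in Sham library 3. Dnajb6, a J protein that limits aggregation, had 40.4, 45.4 and 44.2 CPM in MR, against 37.9, 38.6 and 41.7 CPM in Sham (log2 fold change 0.14, SE 0.09, adjusted p = 0.274). Dnaja2, the cytosolic J protein closest to passing, had 208, 174 and 194 CPM in MR, against 223, 242 and 242 CPM in Sham with groups that did not overlap (log2 fold change -0.29, SE 0.10, adjusted p = 0.0615). Dnaja2 passed as lower in the DESeq2 test (adjusted p = 0.0405), in edgeR without MR library 1 (0.0438) and in the authors' deposited table (1.04e-05). By class, 1 of 4 DNAJA, 1 of 9 DNAJB and 4 of 25 DNAJC genes (16%) were lower in MR and 2 DNAJC genes (8%) were higher, beside 10.6% lower and 11.8% higher of all genes tested, so the DNAJB and DNAJC shares were near those of all genes. On library totals none of these classes had a lower call, and 2 DNAJB and 5 DNAJC genes were higher. Of all genes, 3.77% were lower and 26.4% higher on that scale.

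**Figure D3:**
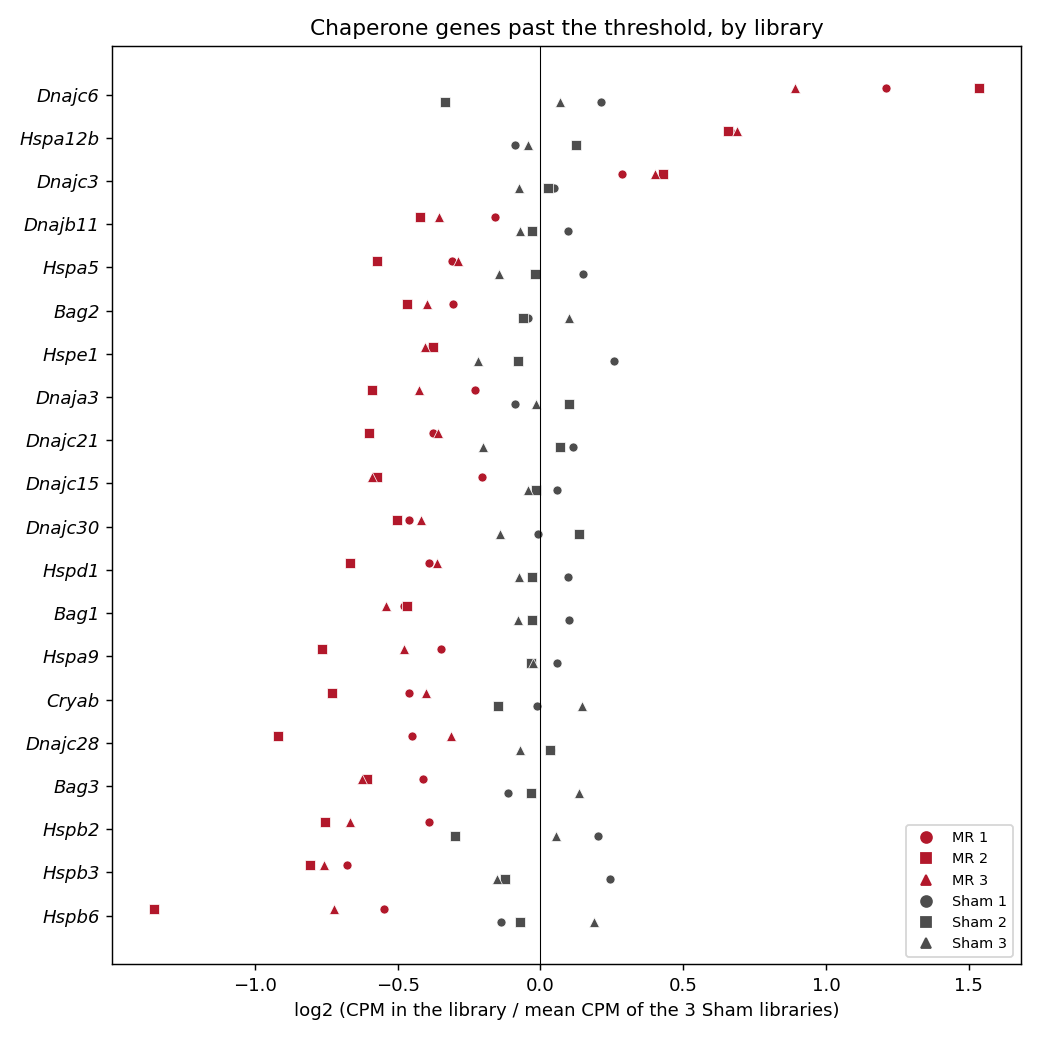
CPM of each library divided by the mean of the 3 Sham libraries (log2 scale) for 20 chaperone genes past the threshold, without pseudogenes and related sequences, with MR libraries in red and Sham libraries in grey. MR points lie wholly on one side of the Sham points for each of the 20 genes, 3 to the right and 17 to the left. The genes were chosen by a test on these same libraries, so this separation largely follows from the choice and is no further support. Of all genes tested, 20.6% lie wholly to the right and 21.2% wholly to the left. MR library 2 is the farthest left for Hspb6.

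Mitochondrial chaperones had the largest share of lower calls among the 3 compartments compared, a description and not a test of the difference. Of 8 tested, 6 (75%) were lower in MR and 0 higher, beside 10.6% and 11.8% of all genes tested, with a median of -0.43. Per library, measured against the Sham mean, the median was -0.29, -0.54 and -0.41 in MR libraries and 0.06, -0.03 and -0.06 in Sham libraries, so every MR library was below every Sham library. DESeq2 (10.1% and 11% of all genes) and limma-voom (10.6% and 11% of all genes) also called 6 lower and 0 higher. At an unadjusted p below 0.05 edgeR gave 6 lower and 0 higher, beside 17.9% and 19% of all genes. On library totals the median was -0.22 and none of the 8 passed.

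Hspa9, or mortalin, is the mitochondrial HSP70 that pulls imported proteins into the matrix, and it had 397, 297 and 362 CPM in MR, against 525, 493 and 496 CPM in Sham. Sham libraries were close together, MR library 2 was lowest, and Hspa9 fell by 30.3% (log2 fold change -0.52, SE 0.12, adjusted p = 0.0148). Hspd1 encodes HSP60, the barrel in which matrix proteins fold, and had 207, 171 and 212 CPM in MR, against 291, 267 and 258 CPM in Sham (log2 fold change -0.47, SE 0.11, adjusted p = 0.0159). Hspe1 encodes HSP10, the lid of that barrel, and had 44.3, 44.5 and 43.7 CPM in MR, against 69.0, 54.7 and 49.7 CPM in Sham (log2 fold change -0.39, SE 0.12, adjusted p = 0.0404). MR libraries of Hspe1 were almost equal, while Sham library 1 was well above the other 2.

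Hspd1 and Hspe1 are read in opposite directions from one shared promoter on chromosome 1, with start sites 215 bases apart, and their exons overlap over 4.2% of the exon bases of Hspd1 and 7.6% of those of Hspe1. The promoter windows of RefSeq (build GRCm38.p6, 250 bases before to 50 after each start) covered 62 of the 94 genes. A heat shock element was searched in them as GAANNTTCNNGAA on both strands, where N is any base. It was found in 0.603% of all 32851 mouse windows and in 6 of the 80 windows of chaperone genes. These belonged to 4 of the 62 genes, Hspd1, Hspe1, Hsph1 and Dnajb6. Elements with other letters or spacing, or outside these windows, were not searched, so the other genes may carry them. The stretch shared by Hspd1 and Hspe1 is at chr1:55088053-55088082 (plus strand) and that of Dnajb6 at chr5:29735844-29735872 (plus strand); they are shown because these are the letters that heat shock factors are known to bind, with the matches in capitals, and in the first line 2 matches overlap.
Hspd1-Hspe1: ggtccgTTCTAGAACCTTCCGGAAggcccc
Dnajb6: agctccgaGAATCTTCCGGAAcgctagac

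In Hsph1 the match lay after the start site and is not printed. Of these 4 genes Hspd1 and Hspe1 were lower in MR and Hsph1 and Dnajb6 did not pass, so genes with the same letters in this window had log2 fold changes between -0.47 and 0.14. TPM of Hspd1 exceeded that of Hspe1 by a ratio of 2.61, 2.15 and 2.70 in MR libraries against 2.35, 2.72 and 2.90 in Sham libraries, and these ranges overlapped.

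The mitochondrial J proteins split. Dnaja3, the partner of Hspa9 in the matrix, had 53.6, 41.8 and 46.9 CPM in MR, against 59.1, 67.3 and 62.3 CPM in Sham (log2 fold change -0.41, SE 0.11, adjusted p = 0.0244), and Coro7 and Vasn overlap 8.0% of its exon bases. Dnajc30, a J protein that associates with ATP synthase, had 18.4, 17.9 and 18.9 CPM in MR, against 25.1, 27.8 and 22.9 CPM in Sham (log2 fold change -0.46, SE 0.10, adjusted p = 0.0135), with MR libraries close to each other; 26.2% of its exon bases overlap Bud23 on the other strand, so that its reads are uncertain in the same way. Dnajc15, an inner membrane protein that restrains complex I, had 25.4, 19.7 and 19.5 CPM in MR, against 30.5, 29.0 and 28.5 CPM in Sham (log2 fold change -0.45, SE 0.12, adjusted p = 0.0234), and MR library 1 stood nearer to the Sham libraries than the other 2. Dnajc19, a subunit of the import motor, had 16.5, 15.9 and 16.6 CPM in MR, against 20.9, 17.5 and 17.3 CPM in Sham and did not pass (log2 fold change -0.19, SE 0.11, adjusted p = 0.257), although its groups did not overlap. Dnajc11, a protein of the cristae-organising complex, had 37.8, 39.4 and 36.2 CPM in MR, against 35.9, 36.3 and 39.3 CPM in Sham (log2 fold change 0.02, SE 0.08, adjusted p = 0.862).

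The mitochondrial calls depended on single libraries. Hspa9 and Hspd1 missed the threshold without Sham library 1 (adjusted p = 0.0600 and 0.0648 in edgeR), Dnajc30 without Sham library 2 (0.0574), Dnaja3 in 4 and Dnajc15 and Hspe1 in 5 of the 6 fits with 1 library left out. Between 2 and 5 of the 8 were lower when 1 library was left out, beside 4.77% to 11% of all genes, and the median stayed between -0.49 and -0.38. With MR library 3 alone the median was -0.42, and Dnajc15 was the 1 mitochondrial member that passed. Transcripts encoded in the mitochondrial genome, a separate measure, made up 0.496%, 0.485% and 0.653% of counts in MR libraries and 0.951%, 1.79% and 1.04% in Sham libraries, and were lower in every MR library; their part in the result was not tested.

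ER chaperones were called at a rate near that of all genes. Of 13 tested, 1 was higher (7.69%) and 2 were lower (15.4%) in MR, beside 11.8% and 10.6% of all genes tested. The median was -0.09 on the TMM scale and 0.11 on library totals. On library totals 5 were higher and 0 lower, beside 26.4% and 3.77% of all genes. Hspa5, or BiP, is the ER HSP70 and the usual readout of the unfolded protein response, and had 580.1, 484 and 589 CPM in MR, against 797, 711 and 651 CPM in Sham. The groups did not overlap (log2 fold change -0.39, SE 0.12, adjusted p = 0.0471), but the call was lost when any single library was left out (largest adjusted p 0.157 in edgeR). Its J partner Dnajb11 had 42.9, 35.8 and 37.5 CPM in MR, against 51.2, 47.0 and 45.6 CPM in Sham (log2 fold change -0.31, SE 0.10, adjusted p = 0.0438), a call kept in 1 of the 6 fits with a library left out.

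Dnajc3, or P58IPK, a J partner of BiP that also inhibits the kinase PERK, was higher in MR, with 108, 119.6 and 117 CPM in MR, against 91.6, 90.3 and 84.2 CPM in Sham. All MR libraries exceeded all Sham libraries, and Dnajc3 rose by 29.6% (log2 fold change 0.37, SE 0.09, adjusted p = 0.0171). The call was lost without MR library 3, Sham library 2 or Sham library 3 (largest adjusted p 0.0607 in edgeR). Hsp90b1, or GRP94, the HSP90 of the ER, had 326, 303 and 339 CPM in MR, against 389.7, 385 and 331 CPM in Sham (log2 fold change -0.19, SE 0.10, adjusted p = 0.213), with other annotated genes over 15.7% of its exon bases. Dnajb9, or ERdj4, a J protein that feeds misfolded proteins to degradation, had 66.2, 53.9 and 58.7 CPM in MR, against 69.1, 60.0 and 61.4 CPM in Sham (log2 fold change -0.09, SE 0.10, adjusted p = 0.557). Both Hsp90b1 and Dnajb9 overlapped between groups. The TPM ratio of Hspa5 to Hsp90b1 was 1.70, 1.52 and 1.66 in MR libraries against 1.95, 1.76 and 1.88 in Sham libraries, with no overlap, and this ratio does not depend on the scaling of the libraries.

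The ER stress response element, searched as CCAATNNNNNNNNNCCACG on both strands, was in 0.119% of all 32851 windows. Among chaperone genes it was in 3 of 80 windows, those of Hspa5, Hsp90b1 and Dnajc3. The stretches are at chr2:34772020-34772048 (plus strand) for Hspa5, chr10:86705513-86705676 (minus strand) for Hsp90b1 and chr14:118937807-118937865 (plus strand) for Dnajc3. They are shown because these 3 genes carry the same letters and differ in direction, and capitals mark the matches, the second of Hsp90b1 being on the other strand.
Hspa5: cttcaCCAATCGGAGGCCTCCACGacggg
Hsp90b1: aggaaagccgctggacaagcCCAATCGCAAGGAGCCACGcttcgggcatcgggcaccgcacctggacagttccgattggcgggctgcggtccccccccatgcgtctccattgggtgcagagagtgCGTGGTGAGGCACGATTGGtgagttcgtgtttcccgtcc
Dnajc3: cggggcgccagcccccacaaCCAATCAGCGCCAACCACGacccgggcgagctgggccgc

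Relative to the start site these matches began at base -65 in Hspa5, at -212 and -107 in Hsp90b1 and at -105 in Dnajc3. Of the 3 genes Hspa5 was lower in MR, Dnajc3 was higher and Hsp90b1 did not pass. A match is a description of letters and not evidence of binding in these atria.

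Among members of other or unassigned location 2 of 9 were higher (22.2%) and 1 was lower (11.1%), beside 11.8% and 10.6% of all genes tested. Hspa12b, an atypical HSP70 known for its expression in endothelial cells, had 34.3, 34.1 and 34.9 CPM in MR, against 20.4, 23.6 and 21.0 CPM in Sham. MR libraries were almost equal, Sham libraries were all lower, and the rise was 59.2% (log2 fold change 0.67, SE 0.09, adjusted p = 0.00204), the smallest adjusted p of the 75. Dnajc6, auxilin, which strips clathrin from vesicles and is best known from neurons, was low, with 2.55, 3.20 and 2.05 CPM in MR, against 1.28, 0.876 and 1.16 CPM in Sham (log2 fold change 1.21, SE 0.28, adjusted p = 0.0147). Dnajc28 was lower, with 37.3, 27.0 and 41.1 CPM in MR, against 52.3, 52.1 and 48.5 CPM in Sham (log2 fold change -0.54, SE 0.14, adjusted p = 0.0222). Endothelial markers were higher in the same libraries, with 2 of 4 past the threshold (Kdr 0.39 and Pecam1 0.41 as log2 fold changes) and summed TPM of 305, 359.7 and 329 in MR against 199.7, 229 and 204 in Sham; their part in the Hspa12b result was not tested.

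Only 5 of the 16 pseudogenes and related sequences could be tested. Such copies share sequence with their parent genes, so that reads of the copy and of the parent cannot be told apart with certainty, and their values are not separate from those of the parents. Hspd1-ps3 had a log2 fold change of -0.53 and Dnajb6-ps of -0.06, and neither passed the threshold.

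The partners of these chaperones were counted from lists of co-chaperones, folding enzymes and clients. Beside the counts of these lists and of the markers below, 11.8% of all genes tested were higher and 10.6% lower in MR. On library totals these shares were 26.4% and 3.77%. At an unadjusted p below 0.05 in edgeR they were 19% and 17.9%. At adjusted p below 0.05 they were 11% and 10.1% in DESeq2, and 11% and 10.6% in limma-voom. MR values lay wholly above Sham values for 20.6% of all genes tested and wholly below for 21.2%. Of 15 cytosolic co-chaperones 1 was higher (6.67%) and 4 were lower (26.7%) in MR (3 and 1 on library totals). Both immunophilins of the HSP90-steroid receptor complex passed, in opposite directions. Fkbp5 was higher, with 49.0, 31.4 and 36.8 CPM in MR, against 19.0, 13.6 and 16.3 CPM in Sham (log2 fold change 1.25, SE 0.17, adjusted p = 0.00214). Fkbp4 was lower, with 167, 148 and 167 CPM in MR, against 261, 242 and 250.3 CPM in Sham (log2 fold change -0.64, SE 0.09, adjusted p = 0.00287). Neither group of libraries overlapped the other for Fkbp5 or Fkbp4, and both calls held on library totals. Stip1, which hands clients from HSP70 to HSP90, Chordc1, an HSP90 partner, and Unc45b, the myosin-folding partner of HSP90 in muscle, were lower (-0.34, -0.32 and -0.45 as log2 fold changes).

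TRiC is the cytosolic ring that folds actin and tubulin. All 8 subunits had MR values wholly below Sham values, beside 21.2% of all genes tested. Of the 8, 3 (37.5%, beside 10.6% of all genes) passed as lower: Tcp1 (log2 fold change -0.42, SE 0.11, adjusted p = 0.0224), Cct7 (log2 fold change -0.40, SE 0.11, adjusted p = 0.0287) and Cct2 (log2 fold change -0.27, SE 0.08, adjusted p = 0.0449). The median over the 8 was -0.27 (-0.07 on library totals, where none passed). Of 12 mitochondrial co-chaperones and proteases 3 were lower (25%, beside 10.6% of all genes) and 0 higher (1 and 1 on library totals, median 0.02). Clpx, the unfoldase of the ClpXP protease, fell the most of these, with 35.9, 28.9 and 38.4 CPM in MR, against 57.0, 53.4 and 51.1 CPM in Sham (log2 fold change -0.65, SE 0.11, adjusted p = 0.00533). Grpel1, the nucleotide exchange factor of Hspa9, had 53.6, 56.4 and 53.0 CPM in MR, against 71.6, 62.6 and 67.4 CPM in Sham (log2 fold change -0.31, SE 0.09, adjusted p = 0.0327). Trap1, the mitochondrial HSP90, was lower with a log2 fold change of -0.34.

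Of 20 tested genes of ER folding and the unfolded protein response 0 were higher and 1 was lower, the lectin chaperone Canx (log2 fold change -0.36, SE 0.11, adjusted p = 0.0400), with a median of 0.04; on library totals 7 were higher and 0 lower with a median of 0.24. At an unadjusted p below 0.05 edgeR gave 3 higher and 1 lower, beside 19% and 17.9% of all genes tested. DESeq2 and limma-voom each called 0 higher and 1 lower at adjusted p below 0.05. The stress sensors Ern1 and Eif2ak3 had MR values wholly above Sham values and did not pass (log2 fold changes 0.31 and 0.35, adjusted p 0.0503 and 0.0643 in edgeR). Atf6, of the same list, overlapped between groups (log2 fold change 0.20, adjusted p = 0.251 in edgeR). Of the 20 genes 4 had MR values wholly above and 3 wholly below Sham values, near the 20.6% and 21.2% of all genes. Of 3 heat shock factors 0 were called by edgeR, DESeq2 or limma-voom at adjusted p below 0.05, and 2 had an unadjusted p below 0.05 in edgeR, 1 in each direction. Hsf1, the main activator of heat shock genes, had 34.3, 34.2 and 31.9 CPM in MR, against 25.7, 28.7 and 31.8 CPM in Sham (log2 fold change 0.22, SE 0.10, adjusted p = 0.129), with all MR values just above all Sham values, and it passed as higher on library totals. Hsf2 had MR values wholly below Sham values and did not pass (log2 fold change -0.25, SE 0.10, adjusted p = 0.0924).

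Of 6 sarcomere clients and parts of chaperone-assisted autophagy 2 were lower: Smyd1, a methyltransferase that works with HSP90 in myosin assembly (log2 fold change -0.53, SE 0.09, adjusted p = 0.00568), and Des, the desmin that Cryab binds (log2 fold change -0.51, SE 0.11, adjusted p = 0.0120). On library totals Smyd1 alone of the 6 passed as lower, 0 were higher and the median was -0.02. Flnc, Synpo2, Lamp2 and Sqstm1 did not pass. Of 6 atrial cardiomyocyte markers 3 were lower in MR, Sln, Myl4 and Myl7 (-0.49, -0.70 and -0.56 as log2 fold changes), of which Myl4 also passed on library totals. The other 3, Myh6, Nppa and Tbx5, were not called (log2 fold changes -0.42, -0.14 and 0.04). Summed TPM of the 6 ranged from 116629 to 123084 in MR and from 98769 to 127253 in Sham, and Nppa alone held 82371 TPM of it in MR and 72147 TPM in Sham on average. Macrophage markers were higher for 5 of 5 (summed TPM 921, 1103 and 723 in MR against 443, 431 and 444 in Sham) and erythroid markers for 4 of 4 (1773, 1399 and 1711 against 868, 792 and 719.9). Fibroblast markers were called in 0 of 4 by edgeR and limma-voom and 1 was higher by DESeq2, with 2 higher at an unadjusted p below 0.05 in edgeR. The 1 testable B and T cell marker was not called by any of these tools, and 1 of 3 fast skeletal muscle markers was lower. Immediate early genes, which respond to handling of tissue, were called in 0 of 7 by edgeR, DESeq2 and limma-voom, and 2 had an unadjusted p below 0.05 in edgeR (225, 359.6 and 668 summed TPM in MR against 249.6, 179.9 and 364 in Sham). The part of any of these cell types in the chaperone results was not tested.

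MR library 2 had the lowest CPM of the MR libraries for 42 of the 75 chaperone genes. The same count was not made over all genes, so whether this share is unusual is not known. MR library 2 also had the most fat cell transcripts, and a link to the chaperone values was not tested. With MR library 2 left out, 10 chaperone genes were lower in MR (5.52% of all genes were). Without Sham library 1 there were 7 (4.77% of all genes) and without Sham library 2 there were 10 (5.77%). Without MR library 3 and without Sham library 3 there were 12 each (7.15% and 6.64%), and without MR library 1 there were 21 (11%). The number higher in MR was 2 or 3 in these fits, beside 5.37% to 11.2% of all genes. Hspa12b, Bag1, Hspb3, Bag3 and Hspb6 passed in each of the 6 fits with 1 library left out. With MR library 3 alone, the one low in fat cell markers, 4 were lower (Bag1, Bag3, Dnajc15 and Hspb6, beside 2.55% of all genes). Hspa12b was higher, beside 3.47% of all genes. The medians changed little there, at -0.18 for cytosolic and nuclear, -0.42 for mitochondrial and -0.11 for ER members.

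**Figure D4:**
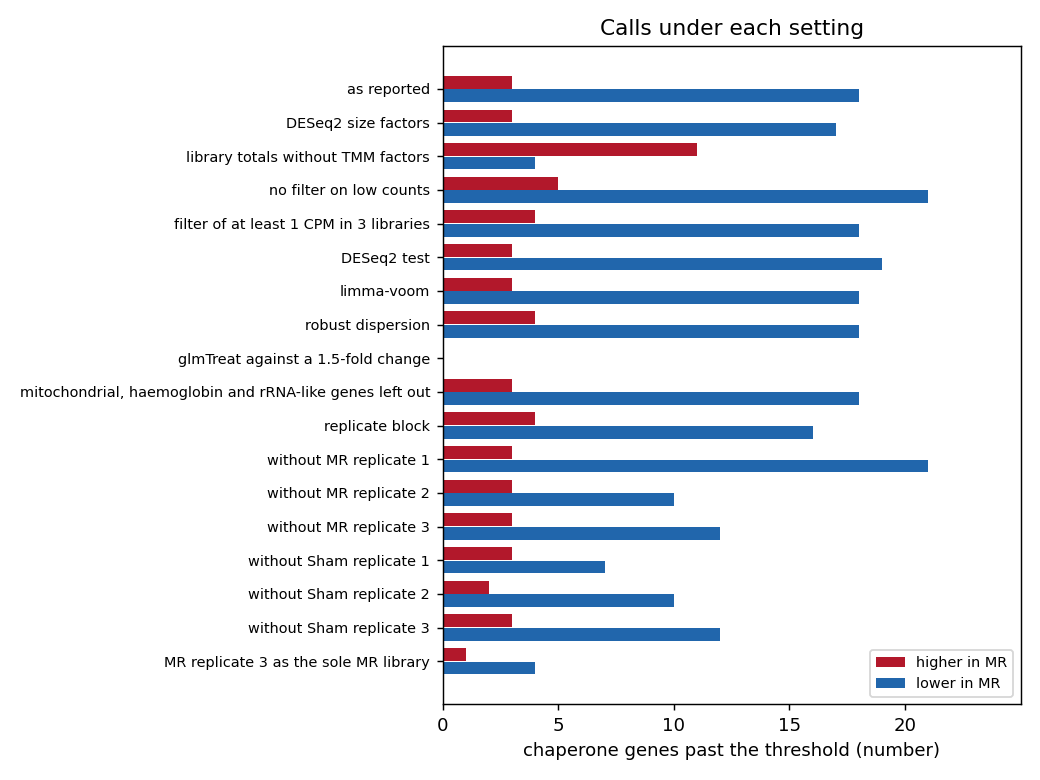
Number of chaperone genes past the threshold and higher (red) or lower (blue) in MR under each setting of the analysis. The count of lower genes is 18 as reported, between 7 and 21 with 1 library left out, 4 on library totals and 0 when tested against a 1.5-fold change. Of all genes tested, 10.6%, 4.77% to 11%, 3.77% and 0.302% were lower under these settings.

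Tested against a change of 1.5-fold (glmTreat in edgeR), 0 of the 75 chaperone genes passed in either direction, beside 250 of 15218 genes (1.64%), while 34 of the 75 had an unadjusted p below 0.05 against no change (45.3%, beside 36.9% of all genes). The authors' deposited table gives 77 chaperone genes an adjusted p, and at adjusted p below 0.05 it has 31 lower in MR and 3 higher, beside 14.6% and 12% of all genes. The 18 lower genes of the edgeR fit were all among those 31, and 2 of the 3 higher genes were shared. The exception was Dnajc6, for which the authors' deposited table gave a log2 fold change of 0.53 and an adjusted p of 0.0769.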

How the data were processed

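Left atrial poly(A) RNA of 3 MR and 3 Sham mice was sequenced as stranded paired-end libraries, per the labels' protocols. Per the submitters' processing notes, build GRCm39 was used with HISAT2 2.1.0 and with featureCounts (Subread 2.0.1), and fastp, SAMtools, FastQC, MultiQC and DESeq2 are named as well; the sources used here give neither the order of steps nor the annotation release or strand setting. The authors deposited whole-number counts per gene and, per the file headers, TPM values, a log2 fold change, and raw and adjusted p-values. TPM served to compare levels between genes, and the authors' log2 and p-value columns are quoted as theirs.

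Counts were tested with edgeR 4.0.16 (R 4.3.3): TMM factors, the filterByExpr filter, quasi-likelihood test without covariates, and Benjamini-Hochberg adjustment at 0.05 over the 15218 genes kept (99.8% of counts). CPM values are on TMM-scaled totals, and the SE is the coefficient divided by the square root of F. Alternatives to the scaling were library totals and the size factors of DESeq2, and to the filter, none or at least 1 CPM in 3 libraries. Others were the DESeq2 1.42.0 test, voom of limma 3.58.1, a robust dispersion, glmTreat, removal of mitochondrial, haemoglobin and rRNA-like genes, a replicate block, each library left out, and MR library 3 alone, which is then assumed to vary like the others. The steps were tested on simulated data. Within groups, chi-square per degree of freedom between libraries was 13.0 to 22.8, so none was a duplicate, and 0 columns of per-sample values were left unused.

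Members, compartments, lists and alternatives were chosen with earlier results of these data known. The text names every member past the threshold except 1 that is counted but not reported here, the 3 most abundant of each compartment, 22 members whatever their result, and up to 4 called genes of each other list; further genes were named after their values were seen. Promoters and exon overlaps came from RefSeq GRCm38.p6 and GENCODE tables of build GRCm38, matched by symbol or identifier, since no annotation of GRCm39 was used. Compartments were assigned from general knowledge of each protein.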

Additional observations from a re-analysis of the deposited data

How the results depend on the processing

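On library totals 11 chaperone genes were higher and 4 lower in MR, beside 26.4% and 3.77% of all genes. The medians on that scale were 0.020 for cytosolic and nuclear, -0.22 for mitochondrial and 0.11 for ER members. The values of Hspa1a (0.17), Hspa8 (0.13), Hsp90ab1 (0.042), Hsph1 (0.029), Hspb8 (0.055), Hsp90b1 (0.015) and Dnajb9 (0.11), none of them called, were positive there and negative on the TMM scale, beside a shift of the median gene by 0.21 that the scaling itself makes. Without the filter on low counts 5 were higher, beside 8.73% of all genes. Tested against a 1.5-fold change, 250 genes passed in all, and 0 chaperone genes were higher and 0 lower. With 1 library left out, all genes called ranged from 1583 to 3453, chaperone genes higher from 2 to 3 and lower from 7 to 21, the cytosolic and nuclear median from -0.24 to -0.17, the mitochondrial median from -0.49 to -0.38 and the ER median from -0.15 to -0.076. The low counts came without Sham library 1 (1583 genes, 7 lower), Sham library 2 (1897, 10) and MR library 2 (1941, 10). MR library 3 alone gave 976 genes, 1 chaperone gene higher and 4 lower. Hspa1a, uncalled throughout, turned positive in limma-voom (0.20), without MR library 2 (0.09), without Sham library 3 (0.59) and with MR library 3 alone (0.029), where Hspa8 was at 0.024, and ranged from -0.40 to 0.59 with 1 library left out; the cause was not tested. Of the single-gene values under the alternatives 452 kept direction and call, 101 lost the call, 12 gained it and 13 changed sign.

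With the replicate number as a block, 3085 genes were called, and 4 chaperone genes were higher and 16 lower, beside 11.2% and 9.09% of all genes. Hspa5 and Dnajb11 were lost, Hspa1b was gained, and Hspa1a was at 0.11. Same-numbered MR and Sham libraries did not deviate together (correlations of -0.01, -0.01 and -0.19 across genes), and no library correlated best with its own number. The largest correlations were 0.18, for MR library 1 with Sham library 3, and 0.17, for MR library 3 with Sham library 2. With 3 libraries a group such correlations cannot exclude a shared day or batch, so whether the numbers pair the mice was not settled. Of the genes at a few CPM, Dnajc6 rests on 12 to 50 counts a library, and Hspa1a had 30 to 133 counts in Sham libraries. Which of counting depth and the spread between 3 mice limits each value was not tested.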
